A study of Rattus norvegicus with 8 samples.

Results

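The complement genes described here are C1r, C1s, Serping1, C3, C4bpa, C4bpb, C5, C6 and C9, of which 7 were measured in rat liver, out of 4736 genes named on the array. They had 8 of its 8740 probe sets for rat transcripts. A probe set is a group of short probes for 1 transcript. The 9 genes were chosen on their role in complement and with their signals in these same D3T and vehicle livers already known, so the contrast between the groups is given for them as a description, without a test. C5 and C6 had no probe set under a single gene symbol and are not analysed here. All 8 probe sets passed the filter on low signal.

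Liver RNA of male Fischer 344 rats was measured on Affymetrix rat arrays (RG-U34, version A), 1 array per rat. The 4 D3T rats received D3T by gavage at 0.3 mmol per kg on days 1, 3 and 5. The other group, of 4 vehicle rats, was gavaged with the sucrose carrier alone (saturated, 0.2 ml) on the same days, although the label of vehicle replicate 2 names no days. D3T is a dithiolethione known as an activator of the transcription factor Nrf2. Both groups ate AIN 76A chow, carried the age label 6 with no unit, and had their livers snap frozen. Whole liver was used, so fewer cells of a type and less RNA per cell cannot be told apart.

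Complement is a cascade of plasma proteins that tags microbes and damaged cells and can open pores in their membranes. Its classical branch starts with the C1 complex, in which the protease C1r activates the protease C1s; all branches meet at C3, and the cascade ends with the membrane attack complex, which C9 completes. Hepatocytes make most of these plasma proteins, together with inhibitors such as the C1 inhibitor and the C4b-binding protein, and many complement genes respond to inflammatory cytokines such as interleukin 6.

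The stretches around the gene starts are shown for the 4 measured genes with an entry in the RefSeq promoter table, because they include C3, whose probe sets overlapped between the groups, and 3 genes with lower signals in D3T livers. Each runs from 250 bases before to 50 after the start on GRCr8, at chr4:159098763-159099062 on the plus strand for C1r, chr9:2201290-2201589 on the minus strand for C3, chr13:44663422-44663721 on the minus strand for C4bpa and chr13:44683732-44684031 on the minus strand for C4bpb. The capitals mark the single motif found in each.
C1r: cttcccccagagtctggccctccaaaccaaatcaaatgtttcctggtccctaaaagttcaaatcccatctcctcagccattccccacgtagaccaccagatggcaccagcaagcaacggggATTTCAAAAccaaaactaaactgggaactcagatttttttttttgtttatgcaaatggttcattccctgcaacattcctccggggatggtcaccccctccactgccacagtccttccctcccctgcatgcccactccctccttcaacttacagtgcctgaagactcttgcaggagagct
C3: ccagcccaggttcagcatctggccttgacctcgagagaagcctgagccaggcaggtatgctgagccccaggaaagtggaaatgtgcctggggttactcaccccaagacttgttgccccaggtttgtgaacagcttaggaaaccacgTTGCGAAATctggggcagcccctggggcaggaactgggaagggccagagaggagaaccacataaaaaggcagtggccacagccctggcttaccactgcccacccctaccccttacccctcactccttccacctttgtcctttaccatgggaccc
C4bpa: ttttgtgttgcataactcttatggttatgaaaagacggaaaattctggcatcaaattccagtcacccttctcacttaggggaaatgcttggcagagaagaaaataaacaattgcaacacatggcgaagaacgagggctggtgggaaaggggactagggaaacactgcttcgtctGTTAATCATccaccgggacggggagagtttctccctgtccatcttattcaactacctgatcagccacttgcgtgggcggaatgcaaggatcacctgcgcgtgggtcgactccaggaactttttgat
C4bpb: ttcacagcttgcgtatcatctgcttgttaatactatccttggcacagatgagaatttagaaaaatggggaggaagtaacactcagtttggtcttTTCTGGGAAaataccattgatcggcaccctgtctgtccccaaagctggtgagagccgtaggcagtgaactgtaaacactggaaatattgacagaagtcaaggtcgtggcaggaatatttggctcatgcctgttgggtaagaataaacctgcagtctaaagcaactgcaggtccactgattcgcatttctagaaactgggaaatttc

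Both strands were searched for 5 motifs of factors that act in liver or in the response to D3T. The C/EBP motif TTNNGNAAT was found in C1r, on the reverse strand 129 bases before the start, and in C3, 104 bases before it. The STAT motif TTCNNNGAA was found 156 bases before the start of C4bpb, and the HNF1 motif GTTAATNAT 76 bases before that of C4bpa, whose start in the table lies inside the gene's span. Among 33469 rat promoters of the same length, 12.3% held the C/EBP motif, 8.87% the STAT motif and 0.747% the HNF1 motif. The antioxidant response element core TGACNNNGC, the motif bound by Nrf2 with its partners, stands in 12.1% of promoters and the NF-kB motif GGNNTTTCC in 6.05%, and neither set of letters is in these 4 windows. A match is a description of letters and not of a bound site.

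The proteases of the C1 complex had lower signals in D3T livers. C1r (rc_AA799803_at), the protease that activates C1s, had signals of 3259.6, 4821, 3979.9 and 2903 in D3T replicates 1 to 4, against 5509, 6572, 6616 and 7478 in vehicle replicates 1 to 4. Signals are linear MAS5 intensities, in replicate order throughout. The groups did not overlap, with D3T replicate 2 the highest D3T liver and vehicle replicate 1 the lowest vehicle liver. C1r averaged 3741 ± 848 in D3T livers and 6544 ± 806 in vehicle livers (SD, n = 4 each), a log2 fold change of -0.83 ± 0.16 (SE), or 1.77-fold lower.

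C1s (D88250_at), the protease that cleaves C4 and C2, had the largest fold change of the 8 probe sets. Its signal was 751, 1082, 1272 and 728 in D3T livers, against 2078, 1993, 2381 and 2775 in vehicle livers. No D3T liver came near the lowest vehicle liver, and D3T replicates 1 and 4 were the lowest. The means were 958 ± 264 in D3T livers and 2307 ± 354 in vehicle livers (SD, n = 4 each), a log2 fold change of -1.30 ± 0.19, or 2.46-fold lower.

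Serping1 (rc_AA800318_at), which encodes the C1 inhibitor that shuts down C1r and C1s, had signals of 3060.5, 4781, 3223 and 2939 in D3T livers, against 4820.4, 5699, 4596 and 6433 in vehicle livers. The groups overlapped, because D3T replicate 2 lay above vehicle replicate 3. The log2 fold change was -0.64 ± 0.17, or 1.56-fold lower, and -0.80 without D3T replicate 2.

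The inhibitor of the C1 proteases and the proteases themselves were also set against each other within each liver. The ratio of the C1s to the C1r signal was 0.230, 0.224, 0.319 and 0.251 in D3T livers, against 0.377, 0.303, 0.360 and 0.371 in vehicle livers. The groups overlapped at D3T replicate 3 and vehicle replicate 2, and the mean log2 difference was -0.47. The ratio of C1s to Serping1 also overlapped, with a log2 difference of -0.66. A ratio of signals shows unequal change between probe sets and not a ratio of molecules, since probe sets differ in response.

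C3, the protein on which all branches converge, gave overlapping groups on both of its probe sets. On M29866_s_at the signals were 25661, 35699.9, 35628 and 27632 in D3T livers, against 25936, 34900.0, 23055 and 29815 in vehicle livers. On X52477_at they were 17802, 22330.0, 26762 and 17788 in D3T livers, against 22606, 26839, 18450.1 and 23806 in vehicle livers. The spread within each group was wider than the difference between the means. Both probe sets were among the brightest, with a lowest percentile on any array of 99.6 for M29866_s_at and 99.2 for X52477_at. Whether signals this bright understate change was not tested.

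The log2 fold change of C3 was 0.13 ± 0.16 on M29866_s_at and -0.12 ± 0.16 on X52477_at, so the probe sets differed in sign. Quantile normalization gave -0.18 and -0.43, of which the second passed the threshold of the limma fit, and a fit with the 3' to 5' ratio of actin, a measure of RNA quality, as a covariate gave 0.41 and 0.29, so the direction for C3 depended on the setting.

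The C4b-binding protein is a fluid-phase inhibitor built of alpha chains (C4bpa), which bind C4b, and in most of its forms a beta chain (C4bpb), which in humans binds the anticoagulant protein S. C4bpa (Z50051_at) had signals of 4885, 5895, 5996 and 5075 in D3T livers, against 7151, 6195, 7341 and 7347 in vehicle livers. The groups did not overlap, but D3T replicate 3 lay close below vehicle replicate 2, which stood apart from the other vehicle livers. The log2 fold change was -0.36 ± 0.11, or 1.29-fold lower.

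C4bpb (Z50052_at) had signals of 1124, 1509, 1266 and 1177 in D3T livers, against 2467, 1868, 2628 and 2801 in vehicle livers. Every D3T liver was below every vehicle liver, and vehicle replicate 2 was again the lowest of its group. The means were 1269 ± 170.2 in D3T livers and 2441 ± 406 in vehicle livers (SD, n = 4 each), a log2 fold change of -0.94 ± 0.15, or 1.91-fold lower.

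The probe sets for the chains of the C4b-binding protein differed in the size of their change. The ratio of the C4bpb to the C4bpa signal within a liver was 0.230, 0.256, 0.211 and 0.232 in D3T livers, against 0.345, 0.301, 0.358 and 0.381 in vehicle livers. The groups did not overlap, with means of 0.232 ± 0.0184 in D3T livers and 0.346 ± 0.0335 in vehicle livers (SD, n = 4 each) and a log2 difference of -0.57. The genes lie close together on rat chromosome 13, as C1r and C1s do on chromosome 4. Probe sets of the same gene could differ as well, with Fga, the fibrinogen alpha chain, at -1.19 on rc_AA875097_at and -0.27 on M35601_g_at. Each chain of the C4b-binding protein had a single probe set, and an unequal change of the transcripts themselves was not tested.

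**Figure D1:**
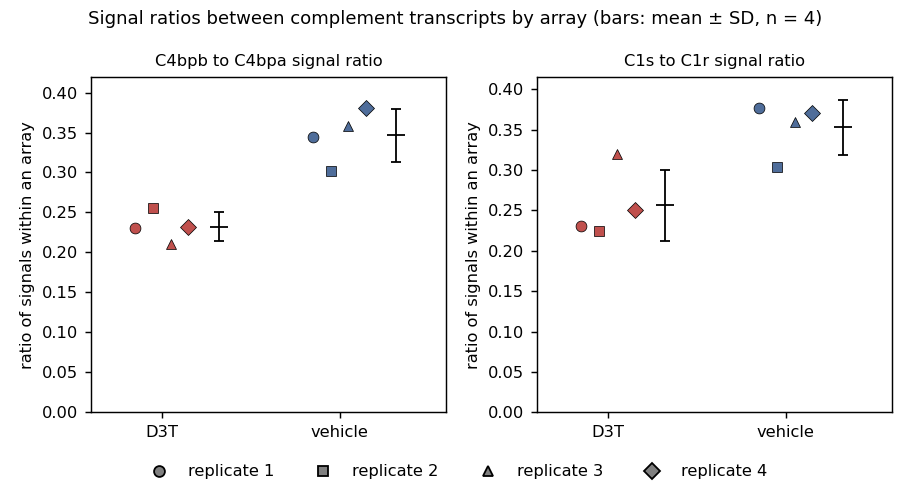
Ratio of C4bpb to C4bpa signal (left) and of C1s to C1r signal (right) within each array, on linear axes from 0, for D3T and vehicle livers, with points for the 4 arrays per group and bars for the mean ± SD. The C4bpb to C4bpa ratio lies between 0.211 and 0.256 in D3T livers and between 0.301 and 0.381 in vehicle livers, while the C1s to C1r ratio overlaps.

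C9 (U52948_at), the subunit that polymerises to complete the membrane pore, had signals of 4448, 4171, 5752 and 3481 in D3T livers, against 7979.7, 7361, 7131 and 8440.2 in vehicle livers. The groups did not overlap, with D3T replicate 3 the highest and replicate 4 the lowest D3T liver. The means were 4463 ± 951 in D3T livers and 7728 ± 595 in vehicle livers (SD, n = 4 each), a log2 fold change of -0.81 ± 0.15, or 1.76-fold lower.

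**Figure D2:**
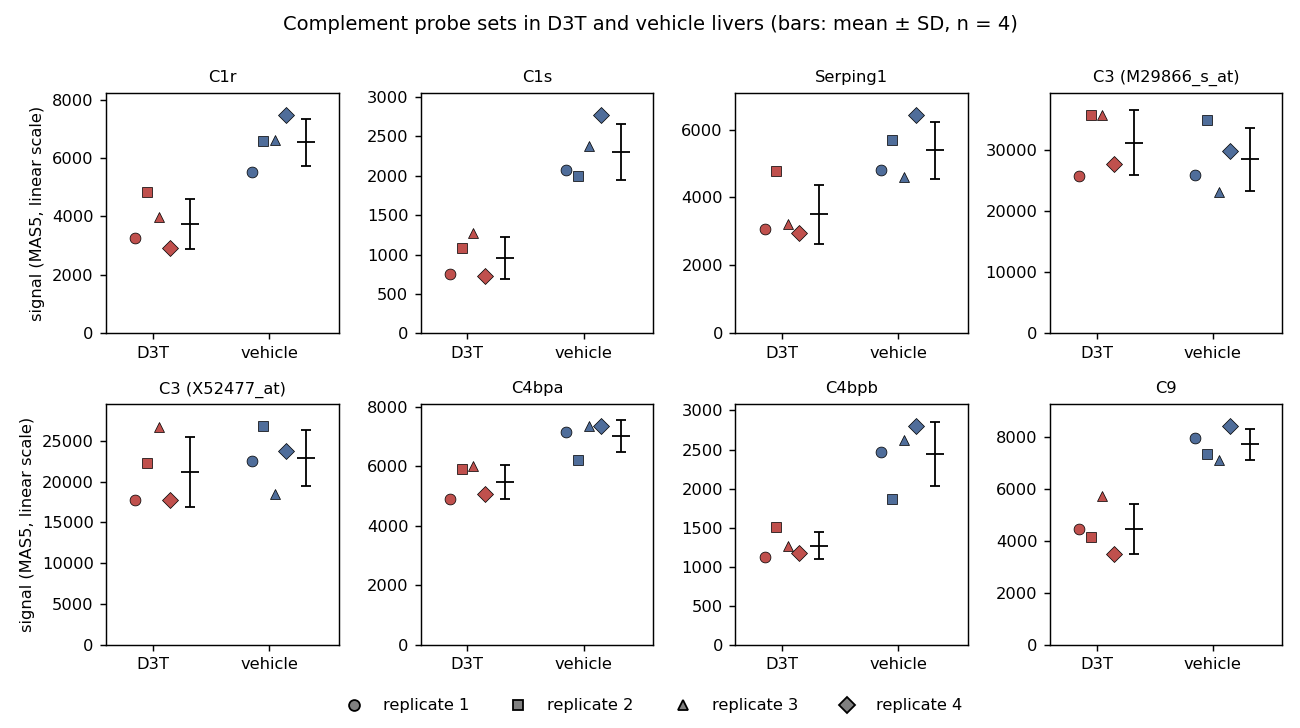
Signal (linear MAS5 scale, axes from 0) of the 8 complement probe sets in 4 D3T and 4 vehicle livers, with 1 point per array, its shape marking the replicate number, and bars for the mean ± SD. C1r, C1s, C4bpa, C4bpb and C9 have every D3T point below every vehicle point, whereas Serping1 and both C3 probe sets overlap.

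Across the 8 probe sets, 5 had all D3T livers below all vehicle livers, against 11.3% of the 5244 probe sets tested. The limma fit placed 5 of the 8 past its threshold (adjusted p under 0.05) and lower, those of C1r, C1s, Serping1, C4bpb and C9, where 6.48% of all tested probe sets were called lower. With 1 probe set per gene these were 5 of 7 genes, where 5.84% of 3150 genes were called lower, and their median log2 fold change was -0.81, beside 0.03 over all 3150 genes. The genes were chosen with this contrast known, so these shares describe the choice.

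The D3T livers did not differ equally from the vehicle livers. The median deviation of the 8 probe sets from the vehicle mean, on the log2 scale, was -0.80, -0.34, -0.57 and -0.95 in D3T replicates 1 to 4, against -0.06, -0.03, -0.04 and 0.17 in vehicle replicates 1 to 4. Within the D3T group, replicate 2 was the highest liver for 4 probe sets and replicate 3 for the other 4, while replicate 4 was the lowest for 5 and replicate 1 for 3. Within the vehicle group, replicate 4 was the highest for 6 of the 8.

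Signs of RNA quality differed on average between the groups, but neither exact permutation p was under 0.05. The log2 ratio of the 3' to the 5' actin probe set, which is higher where RNA is degraded, was 0.40, 0.43, 0.55 and 0.23 in D3T livers, against 0.67, 0.61, 0.53 and 0.67 in vehicle livers. The groups overlapped at D3T replicate 3 and vehicle replicate 3, and the difference of -0.22 had an exact two-sided permutation p of 0.0571. The same ratio for GAPDH differed by -0.25 (exact permutation p = 0.114), and 4 against 4 arrays allow no p below 0.0286.

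With the actin ratio as a covariate, all non-C3 probe sets stayed lower but none of the 8 passed the threshold. Over all 5244 probe sets tested, 35 passed with this covariate, against 560 without it. With the covariate the log2 fold changes were -0.84 for C1s, -0.56 for C1r, -0.44 for Serping1, -0.23 for C4bpa, -0.84 for C4bpb and -0.37 for C9. The part of RNA quality in these differences was not tested further. The call for Serping1 was also lost without any 1 of the arrays except D3T replicate 2, and the range over arrays left out was -0.80 to -0.55.

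**Figure D3:**
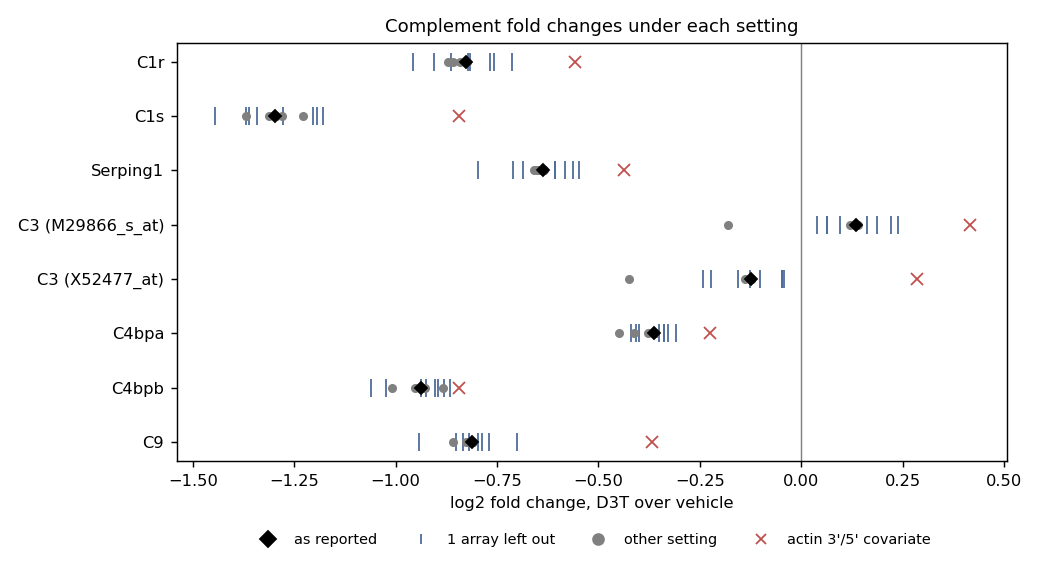
Log2 fold change (D3T over vehicle) of the 8 complement probe sets as reported, with 1 array left out, under the other settings and after adjustment for the actin 3'/5' ratio. All values of C1r, C1s, Serping1, C4bpa, C4bpb and C9 lie below 0 and move closest to it with the covariate, while the C3 values lie on both sides of 0.

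Markers of the cell types in liver were summed per array. Hepatocyte markers, the brightest Alb and Serpina1, summed to 371443 to 499887 in D3T livers and 292090 to 435792 in vehicle livers. Of their probe sets, 1 of Hnf4a was called higher and 1 of Apoa1 lower. Macrophage markers, with 6 of 13 listed genes measured and Lyz2 and Cd14 the brightest, summed to 3598 to 4503 in D3T livers and 3705 to 4424 in vehicle livers, with both Cd14 probe sets called higher and 1 of Aif1 lower. Not called were Lyz2 at a log2 fold change of -0.74 (limma adjusted p = 0.0927) and Clec4f at -0.48 (limma adjusted p = 0.0546). Also not called were Ptprc at 0.64 and the other Aif1 probe sets at -0.80 and 0.37, so the sum joins changes in both directions. Stellate cell markers, the brightest Col3a1 and Col1a1, summed to 2711 to 3137 in D3T livers and 3121 to 5429 in vehicle livers, with both Col3a1 probe sets lower.

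Endothelial markers, the brightest Lyve1 and Kdr, summed to 597 to 822 in D3T livers and 759 to 962 in vehicle livers, with Lyve1 lower. Cholangiocyte markers, the brightest Epcam and Cftr, summed to 411 to 550.5 in D3T livers and 322 to 501 in vehicle livers, with none called. Lymphocyte markers, the brightest Lck and Cd4, summed to 671 to 892 in D3T livers and 649 to 812 in vehicle livers, also with none called. All 3 neutrophil probe sets, those of Itgam, S100a8 and S100a9, stayed under a signal of 100 on every array, with sums of 30.2 to 40.2 in D3T livers and 17.5 to 98.7 in vehicle livers. The part of these cell types in the complement values was not tested.

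Beyond the 9 genes, a list of 48 other complement genes had 20 measured and 16 tested. It was also chosen with earlier results of these data known, so limma's adjusted p over all probe sets is given with that limit. Of the 16, 3 fell, 1 rose and 12 did not pass, where 9.56% of all genes passed in either direction. Their median log2 fold change was -0.25, beside 0.03 over all genes.

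C1qb, a chain of the recognition molecule of the C1 complex, fell. It averaged 959 ± 159 in D3T livers and 1645 ± 148 in vehicle livers (SD, n = 4 each), a log2 fold change of -0.79 ± 0.15 (limma adjusted p = 0.00919), and -1.09 on its second probe set (limma adjusted p = 0.00674). The groups did not overlap on either. C1qc, another chain of the same molecule, had a log2 fold change of 0.08 on its only tested probe set (limma adjusted p = 0.765). Its other probe sets were too dim to pass the filter on low signal. On rc_AA891576_i_at the means were 9.31 in D3T livers and 45.4 in vehicle livers without overlap, while the groups overlapped on rc_AA891576_r_at. C1qc is named here after its values were seen.

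Crp and Apcs, pentraxins that in humans can bind C1q, fell. Crp, C-reactive protein, averaged 4340.0 ± 632 in D3T livers and 7494 ± 1213 in vehicle livers (SD, n = 4 each), a log2 fold change of -0.79 ± 0.15 (limma adjusted p = 0.0118). Apcs, serum amyloid P, averaged 3928 ± 235 in D3T livers and 5893 ± 264 in vehicle livers (SD, n = 4 each), a log2 fold change of -0.59 ± 0.10 (limma adjusted p = 0.00591). Neither gene's groups overlapped on these probe sets. Crp had further probe sets at -0.61 (limma adjusted p = 0.0257) and -0.81 (limma adjusted p = 0.0600).

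C1qbp, a mostly mitochondrial protein first found by its binding of C1q, rose. It averaged 789 ± 79.0 in D3T livers and 449 ± 68.9 in vehicle livers (SD, n = 4 each), a log2 fold change of 0.82 ± 0.15 (limma adjusted p = 0.00963). All 4 of these calls were lost with the actin ratio as a covariate. The log2 fold changes were then -0.85 for Crp (limma adjusted p = 0.176) and -0.45 for Apcs (limma adjusted p = 0.208). C1qb had -0.72 (limma adjusted p = 0.210) and C1qbp 0.93 (limma adjusted p = 0.136). The fold changes of Crp and C1qbp were thus no smaller with the covariate, while the SE of each rose from 0.15 to 0.25.

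The brightest genes that did not pass were Vtn, vitronectin, at -0.32 (limma adjusted p = 0.193), Clu, clusterin, at -0.32 (limma adjusted p = 0.0691), and C8b, a chain of the membrane attack complex, at -0.18 (limma adjusted p = 0.301). Vtn and Clu are fluid-phase inhibitors of that complex, and the groups of Clu did not overlap. Quantile normalization gave -0.59 for Vtn (limma adjusted p = 0.0212) and -0.44 for Clu (limma adjusted p = 0.0135), so that both passed. Clu also passed with the brightest 30% of probe sets (limma adjusted p = 0.0478) and with array weights (limma adjusted p = 0.0420), and with the actin covariate Vtn had 0.07 (limma adjusted p = 0.906). The sequence of C4 was covered by probe sets assigned to both C4b and C4a, which are not counted as genes. On U42719_at these had signals of 5363, 6209, 6305 and 6121 in D3T livers, against 8284, 9088, 7935 and 7666 in vehicle livers, a log2 fold change of -0.46 ± 0.10 (limma adjusted p = 0.0205). On rc_AA800942_at the signals were 70.6, 70.5, 66.5 and 95.7 in D3T livers, against 83.1, 74.5, 74.4 and 50.9 in vehicle livers, with overlapping groups and a log2 fold change of 0.11 ± 0.32 (limma adjusted p = 0.840). The probe set rc_AI639117_s_at, assigned to both Cfb and C2, had -0.32 ± 0.13 with overlapping groups and did not pass (limma adjusted p = 0.125).

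**Figure D4:**
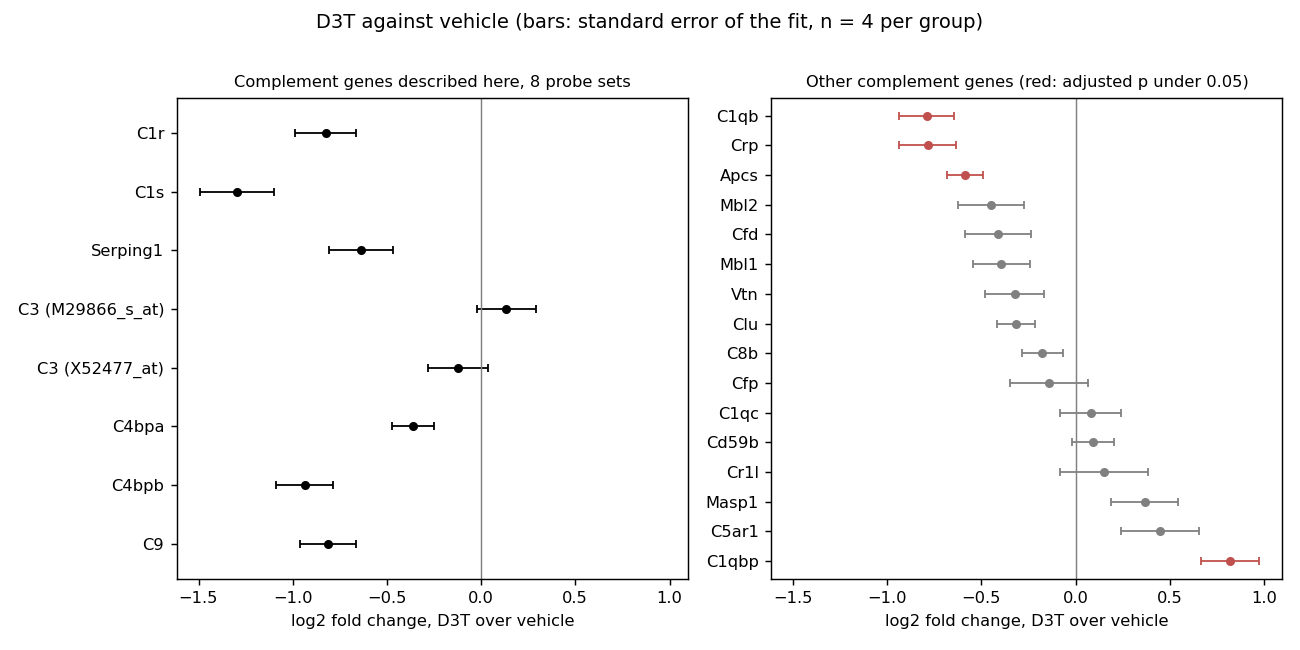
Log2 fold change (D3T over vehicle) with its SE, for the 8 probe sets of the complement genes described (left, black) and 16 other complement genes (right), where red marks a limma adjusted p under 0.05. C1qb, Crp and Apcs lie below 0 in red, C1qbp lies above it, and the other 12 are grey.

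Transcription factors and cytokine receptors known to act on complement genes in liver or on the response to D3T were listed as well. Of 22, 17 were tested, of which 3 fell and 1 rose, where 5.84% of all genes fell and 9.56% passed in either direction. Cebpb, a transcription factor of the acute phase response, fell to 1586 ± 192 in D3T livers, against 2383 ± 248 in vehicle livers (SD, n = 4 each), a log2 fold change of -0.59 ± 0.13 (limma adjusted p = 0.0186). Its dimmer probe set had -0.72 and did not pass (limma adjusted p = 0.0639).

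Il6r, the receptor of interleukin 6, averaged 555 ± 94.0 in D3T livers and 931 ± 165 in vehicle livers (SD, n = 4 each), and fell by 0.74 on the log2 scale (limma adjusted p = 0.0208). Nfkbia, the inhibitor of NF-kB, fell by 0.64 (limma adjusted p = 0.0303), with -1.06 on its dimmer probe set (limma adjusted p = 0.00610). Hnf4a, a factor of hepatocyte identity, rose by 0.50 on its brightest probe set (limma adjusted p = 0.0477). Its other probe sets had 0.72 (limma adjusted p = 0.0765) and 0.35 (limma adjusted p = 0.373), with overlapping groups. Tnfrsf1a, a receptor of tumour necrosis factor and the brightest that did not pass, had -0.24 (limma adjusted p = 0.275). The median of the 17 was -0.49. Each gene's call on its brightest probe set was sensitive to single arrays. That of Cebpb was lost without D3T replicate 1 or vehicle replicate 1, and that of Il6r without D3T replicate 1 or 4 or vehicle replicate 3 or 4. That of Nfkbia held without D3T replicate 2 and vehicle replicate 2 and was lost without each of the others, and that of Hnf4a was lost without any 1 array. With the actin ratio as a covariate all 4 calls were lost. Cebpb then had -0.50 (limma adjusted p = 0.317) and Il6r -0.58 (limma adjusted p = 0.364). Nfkbia had -0.60 (limma adjusted p = 0.339) and Hnf4a 0.31 (limma adjusted p = 0.556). With no filter on low signal the calls of Il6r, Nfkbia and Hnf4a were lost, and quantile normalization cost that of Nfkbia (limma adjusted p = 0.0522).

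Plasma proteins of the acute phase moved in both directions. Of 28 listed genes 21 were tested, of which 4 fell and 1 rose, where 5.84% of all genes fell and 9.56% passed in either direction. Their median log2 fold change was -0.09. Besides Crp and Apcs, Fgb, the fibrinogen beta chain, fell by 0.80 (limma adjusted p = 0.0126) and Serpina3m, a protease inhibitor, by 0.48 (limma adjusted p = 0.0296). Orm1, the alpha 1-acid glycoprotein, averaged 7788 ± 870.0 in D3T livers and 4949.5 ± 301 in vehicle livers (SD, n = 4 each), a log2 fold change of 0.65 (limma adjusted p = 0.00620). Alb, the brightest that did not pass, had 0.46 (limma adjusted p = 0.106), passed without vehicle replicate 2, and had 0.06 under quantile normalization (limma adjusted p = 0.561). The call of Serpina3m was lost without D3T replicate 1 or 2 or any vehicle replicate except replicate 2. With the actin covariate Fgb had -0.43 (limma adjusted p = 0.379) and Serpina3m -0.44 (limma adjusted p = 0.335), while Orm1 kept its call at 0.90 (limma adjusted p = 0.0253). Without the filter on low signal the calls of Fgb (limma adjusted p = 0.0587) and Serpina3m (limma adjusted p = 0.0580) were lost.

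**Figure D5:**
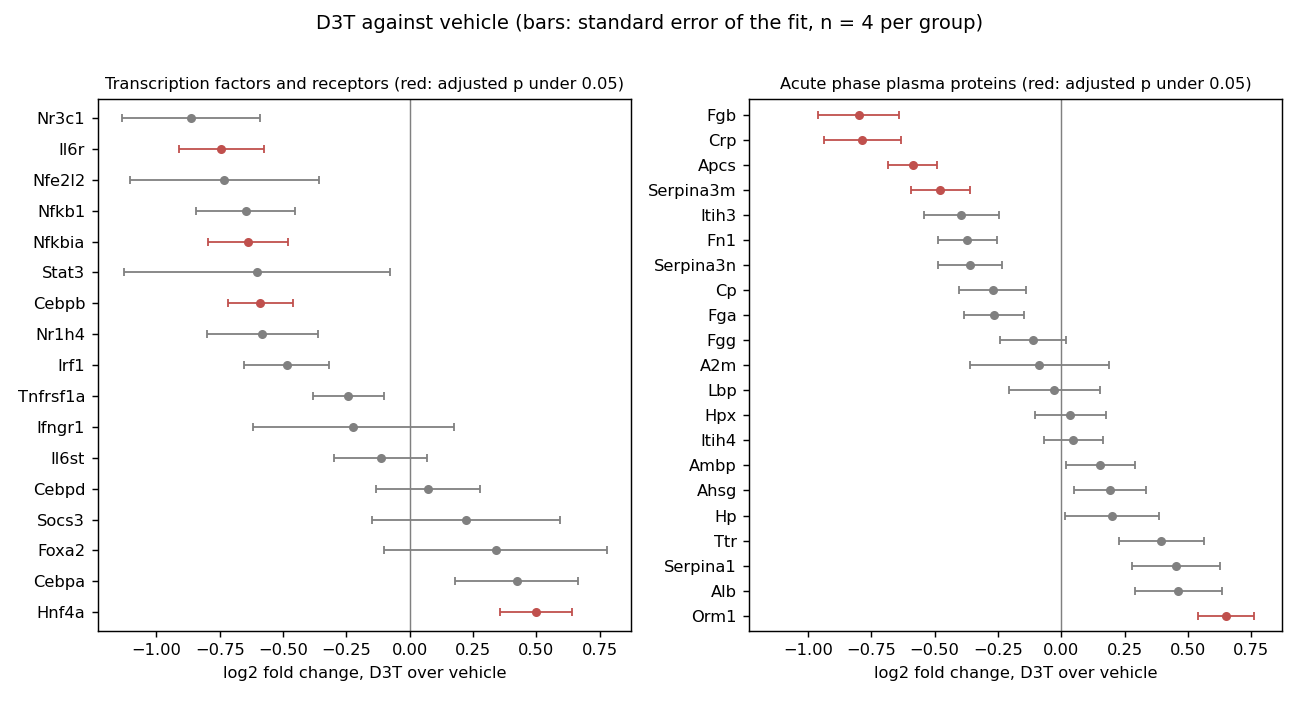
Log2 fold change (D3T over vehicle) with its SE for 17 transcription factors and receptors (left) and 21 acute phase proteins (right), where red marks a limma adjusted p under 0.05. Cebpb, Il6r and Nfkbia on the left and Fgb, Crp, Apcs and Serpina3m on the right lie below 0 in red, and Hnf4a and Orm1 lie above it.

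The profile of C1s over the 8 arrays was compared with those of 3149 other genes by the root mean square difference of centred log2 signals, as a description of likeness, taking the probe set of each gene that was most alike. Smallest was Fabp7 at 0.149, followed by Cyp1a2 at 0.188, Fga at 0.206, Agtr1a at 0.209 and Hdac2 at 0.229. Fga, the fibrinogen alpha chain, was alike on rc_AA875097_at, while its brighter probe set M35601_g_at had a log2 fold change of -0.27 against vehicle. Of the complement genes described, C4bpb ranked 16, C1r 22, C9 36, Serping1 182, C4bpa 401 and C3 966.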

How the data were processed

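Per the submitters' processing notes, the deposited signal intensities were made by the authors with MAS5; for its version, scaling target and detection calls, the entry is: not given in the sources used here. Groups and replicate numbers came from the sample titles. Arrays were first brought to a common 2% trimmed mean (500), values under the 20th percentile (20.3) were raised to it, and log2 was taken. Of 8740 probe sets, excluding 59 controls, the brightest 60% by mean over all arrays (5244) were fitted with limma version 3.58.1 (lmFit, eBayes with an intensity trend) in R version 4.3.3, with Benjamini-Hochberg adjusted p under 0.05 as the threshold. Fold changes understate change near the floor. An intensity has no depth, so the number of arrays limits precision. Genes came from GEO's platform annotation, which gave 7006 probe sets 1 symbol, 308 several and 1426 none; a gene was represented by its brightest tested probe set. Pearson correlations between arrays lay between 0.913 and 0.955. Motifs were searched in the RefSeq promoter table of GRCr8.

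The members and gene lists were chosen with earlier results of these data known. Named were all member probe sets; of the other complement genes, those past the threshold and the 3 brightest that were not; of the regulator and acute phase lists, those past it and the brightest that was not; the brightest markers; and the 5 genes most like C1s. Code was tested on simulated data. RNA quality ratios were compared by exact permutation over 70 assignments. Alternatives were other normalizations, floors, filters, limma options, an actin covariate, a replicate block and leaving out each array. Correlations of the deviations of same-numbered arrays were low, at 0.06, -0.09, 0.01 and -0.20 in replicate order. Only that of replicate 1 was above the highest correlation with another number, which was 0.01. With so few arrays these values cannot settle whether the numbers pair rats, which was not tested further.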

Additional observations from a re-analysis of the deposited data

Results flagged for a closer look

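Of 48 groups of 4 arrays, 4 held a value far from the other 3; chance flags about 1 in 20 groups. C4bpa had 6195 in vehicle replicate 2, where the other vehicle livers lay between 7151 and 7347. Crp had 3394 in D3T replicate 2, where the other D3T livers lay between 4601 and 4683. Apcs had 3579 in D3T replicate 4, where the other D3T livers lay between 4017 and 4096. Cebpb had 2016 in vehicle replicate 3, where the other vehicle livers lay between 2479 and 2559.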

How the results depend on the processing

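Over all probe sets, 560 were called as reported, with fewer under no filter on low signal (309), no intensity trend (333), a replicate block (290) or the actin covariate (35), with more under array weights (824), and between 240 and 695 with 1 array left out. The member calls were 5 of 8 as reported and 6 with the brightest 30% or array weights. They were 7 with quantile normalization (adding C4bpa and C3 on X52477_at) and 4 with no intensity trend (losing Serping1). With no filter they were 3 (losing C1r and Serping1), with the actin covariate 0, and with 1 array left out 4 or 5. The 4 calls among the other complement genes became 6 with quantile normalization and 0 with the actin covariate. Fold changes were recomputed for the 8 member probe sets and 16 other genes, and among these no value called as reported changed sign. Member fold changes moved by more than the replicate spread in 8 refits, 6 with the actin covariate and 2 with quantile normalization, and by less in 152. The replicate block cost the calls of Serping1, Nfkbia (limma adjusted p = 0.0845), Hnf4a (0.101) and Serpina3m (0.0633) and no other call among those 8 probe sets and 16 genes. The actin ratio difference lay between -0.27 and -0.16 and the GAPDH difference between -0.36 and -0.17 with 1 array left out, both reaching the smallest exact p of 0.0286 without D3T replicate 3. Arrays have no depth; their number limits what could be detected.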

Other observations

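Cfp, properdin, which stabilises the alternative pathway convertase, gave different calls on its probe sets. The brighter had a log2 fold change of -0.14 (limma adjusted p = 0.669), and the dimmer one had 128, 171, 104 and 156 in D3T livers, against 268, 266, 274 and 221 in vehicle livers, at -0.90 (limma adjusted p = 0.0243). The mannose-binding lectins, which start the lectin pathway, did not pass: Mbl1 had -0.39 (limma adjusted p = 0.115) and Mbl2 -0.45 (limma adjusted p = 0.119). C5ar1, the receptor of the C5a fragment, had 0.45 (limma adjusted p = 0.175) on its brighter probe set. These genes were chosen after their values were seen.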
